A study of Mus musculus with 10 samples.

Results

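Neurotrophin and growth factor signalling was followed here through 8 genes: the ligands *Bdnf*, *Ntf3* and *Igf1*, the receptors *Ntrk2*, *Ntrk3*, *Ngfr* and *Igf1r*, and the co-receptor *Gfra1*. They were taken by gene symbol, with no measured value used, and are 8 of the 53974 genes in the RNA-seq table. Of the 16600 regions in the ATAC-seq comparison, 4 lay within 1000 bp of an end of one of these genes. All mice were C57BL/6 animals of 8 to 10 weeks that carried floxed *Arid1a* alleles (*Arid1a* fl/fl). Their eyes were injected with AAV2, and the optic nerve was crushed (ONC) 2 weeks later. The WT group received AAV2-GFP and kept the fl/fl genotype, and the cKO group received AAV2-Cre and has the genotype label *Arid1a* del/del. At 3 days after ONC, retinas were dissociated and live cells were sorted with an antibody to Thy1.2, a surface protein of retinal ganglion cells (RGCs) that T cells also carry. There were 3 libraries of each group for RNA-seq and 2 of each for ATAC-seq.

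Neurotrophins are secreted as precursors, are cut by proprotein convertases and act on 2 kinds of receptor. BDNF binds the tyrosine kinase TrkB, the product of *Ntrk2*, and NT-3, the product of *Ntf3*, binds TrkC, the product of *Ntrk3*. All neurotrophins and their precursors can bind p75NTR, the product of *Ngfr*, which in the retina is best known from Mueller glia. IGF-1 acts on the kinase IGF1R, and GFRA1 presents GDNF to the kinase RET. The kinases pass the signal to the PI3K-AKT-mTOR and RAS-MAPK arms. After injury to the optic nerve, BDNF is known as a survival factor for RGCs, and IGF-1 as a factor that can promote regrowth of their axons.

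The sequences just upstream of *Igf1r*, *Ngfr* and *Ntrk2* are shown because a compared ATAC-seq region overlaps each of them, and because they differ in base composition. They are the RefSeq bases of GRCm38.p6 in the 250 bp before the listed start that lie outside the annotated gene, printed on the gene's strand. Capitals mark GGGCGG or its complement CCGCCC, the GC box. The *Igf1r* sequence is chr7:67952007-67952256 on the plus strand, the *Ngfr* sequence is chr11:95587699-95587948 on the minus strand, and the *Ntrk2* sequence is chr13:58806319-58806471 on the plus strand.
*Igf1r*: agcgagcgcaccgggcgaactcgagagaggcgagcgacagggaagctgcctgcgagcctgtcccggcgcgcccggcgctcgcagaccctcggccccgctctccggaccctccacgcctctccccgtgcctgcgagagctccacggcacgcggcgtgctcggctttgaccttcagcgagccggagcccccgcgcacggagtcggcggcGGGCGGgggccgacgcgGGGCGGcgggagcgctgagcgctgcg
*Ngfr*: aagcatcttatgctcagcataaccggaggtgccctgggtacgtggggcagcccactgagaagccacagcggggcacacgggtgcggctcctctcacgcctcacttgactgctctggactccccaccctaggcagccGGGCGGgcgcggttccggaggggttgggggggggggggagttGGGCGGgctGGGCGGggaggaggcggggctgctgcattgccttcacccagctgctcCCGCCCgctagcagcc
*Ntrk2*: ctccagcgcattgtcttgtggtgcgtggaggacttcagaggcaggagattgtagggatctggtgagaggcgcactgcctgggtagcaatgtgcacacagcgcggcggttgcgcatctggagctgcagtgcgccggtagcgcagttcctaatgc
The *Igf1r* sequence held the GC box 2 times, the *Ngfr* sequence held it 4 times, and the *Ntrk2* sequence, of 153 bases, held none. Over the full 250 bases, 32.7% of 32851 RefSeq promoters held at least 1 GC box on either strand. The share of G and C was 77.6% before *Igf1r*, 70.4% before *Ngfr* and 62.8% over the full 250 bases before *Ntrk2*, against a median of 52.4% for all promoters. The promoter of *Igf1r* also had the most CpG dinucleotides of the 3, at 1.12 of the number its base composition predicts, against 0.523 for *Ngfr*, 0.794 for *Ntrk2* and a median of 0.373. The full cAMP response element, TGACGTCA, was in none of the promoter windows of the 7 genes that have an entry, and 1.55% of all promoters held it. *Ntrk3* is named only.

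RNA was measured as TPM, in which reads are divided by transcript length and scaled to a fixed sum per library, so that levels of different genes can be compared. Sequencing depth is lost in this unit, and counting errors are therefore unknown. *Arid1a* itself was not lower in the cKO libraries, with 18.8, 11.7 and 14.1 TPM in WT and 18.8, 27.9 and 25.0 TPM in cKO (log2 fold change 0.66, adjusted p = 0.274 by limma). The groups are therefore libraries labelled WT and libraries labelled cKO, and every RNA direction is by label. The sort was labelled RGCs, but *Pou4f2*, one of the 13 RGC markers, was at 0 in 5 libraries and at 0.143 TPM in cKO replicate 3. *Rbpms*, another of them, was detected in all 6 libraries, at 1.82 to 6.43 TPM. The 13 RGC markers summed to 148 to 206 TPM in WT and 234 to 262 in cKO (3 of the 10 tested higher at an unadjusted p under 0.05 by limma). Markers of rods summed to 12350 to 17310 TPM in WT and 25760 to 48350 in cKO (9 of 9 higher by that measure). Of all genes tested, 11.9% were higher and 6.45% were lower by that measure. Markers of Mueller glia and astrocytes summed to 10640 to 20410 and 8474 to 21360 TPM, with 1 of 8 lower. Markers of amacrine cells summed to 222 to 430 and 569 to 1216 TPM (2 of 7 higher), and markers of bipolar cells to 879 to 1236 and 1118 to 1788 TPM (0 of 7 past that threshold). T cell markers summed to 623 to 1751 TPM in WT and 152 to 372 in cKO (7 of 8 lower), myeloid markers to 1839 to 3029 and 758 to 1045 TPM (4 of 8 lower), and markers of endothelial cells and pericytes to 384 to 1043 and 273 to 771 TPM (1 of the 5 tested lower). Marker levels of several cell types thus moved with the labels, and their part in the values of the 8 genes was not tested. In such sorted bulk samples, fewer cells of a type and less RNA per cell cannot be told apart.

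The receptor genes *Ngfr* and *Igf1r* had the highest mean levels in both groups, and the ligand gene *Ntf3* the lowest. In WT, the mean was 420 TPM for *Ngfr*, 50.3 for *Igf1r*, 17.6 for *Ntrk2*, 17.0 for *Igf1*, 3.90 for *Ntrk3*, 3.34 for *Bdnf*, 3.17 for *Gfra1* and 0.264 for *Ntf3*. The libraries of *Ntrk2* and *Igf1* overlapped, as did those of *Ntrk3* with *Bdnf* and of *Bdnf* with *Gfra1*, so the order within these pairs is not beyond their spread. In cKO, the order of the means was *Ngfr* at 392 TPM, *Igf1r* at 61.9, *Igf1* at 48.5, *Ntrk2* at 29.8, *Gfra1* at 7.95, *Bdnf* at 5.04, *Ntrk3* at 4.93 and *Ntf3* at 0.513. Here *Igf1r* overlapped with *Igf1*, *Igf1* with *Ntrk2*, *Gfra1* with *Bdnf* and *Bdnf* with *Ntrk3*. The libraries of *Ngfr* did not overlap with those of *Igf1r* in either group, nor did those of *Ntf3* with the gene above it.

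**Figure D1:**
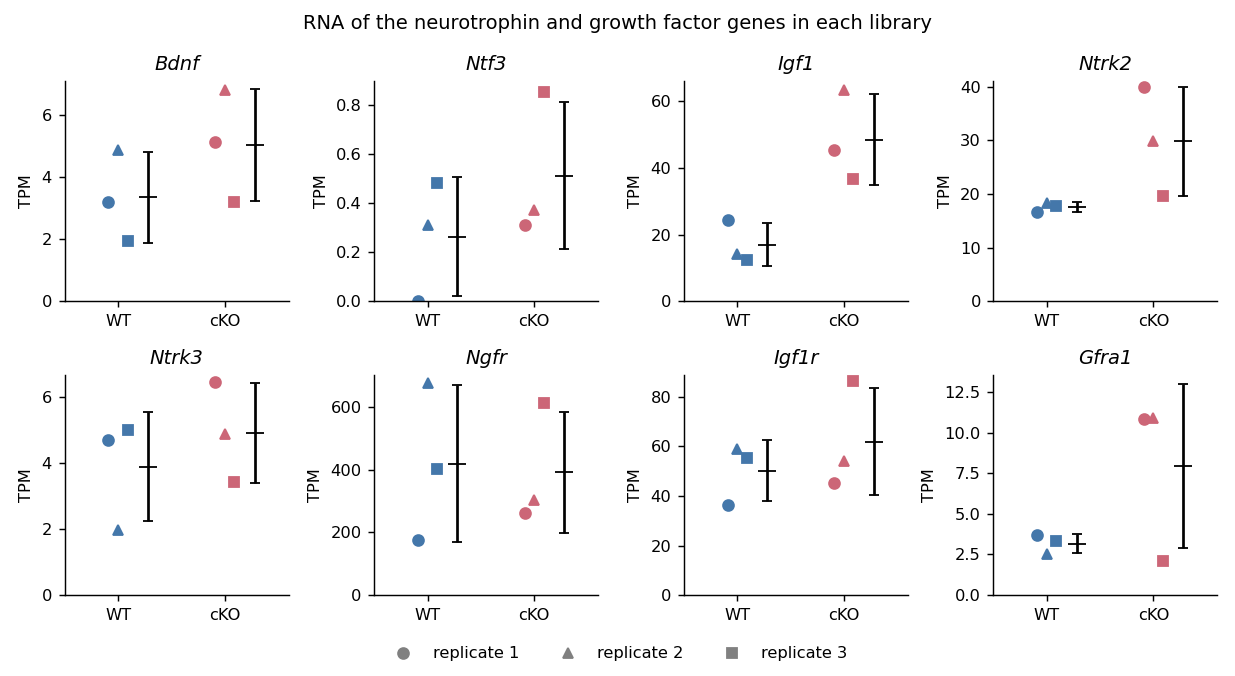
TPM of the 8 genes (vertical axes from 0, one scale per gene) in the 3 WT libraries (blue) and the 3 cKO libraries (red), with the replicate number given by the symbol and the mean ± SD as a black bar. For *Igf1* the lowest cKO library, at 36.7 TPM, lies above the highest WT library, at 24.3 TPM, and for *Ngfr* the libraries of both groups spread over the same range.

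Among the ligands, *Igf1* had the clearest difference of the 8 genes, although it did not pass the adjusted threshold. *Igf1* encodes insulin-like growth factor 1 (chr10:87858265-87937047, GRCm38). It was at 24.3, 14.2 and 12.5 TPM in WT replicates 1 to 3, and at 45.3, 63.4 and 36.7 TPM in cKO. Every cKO library was above every WT library. The means were 17.0 ± 6.35 TPM (SD, n = 3) in WT and 48.5 ± 13.6 TPM in cKO, a ratio of 2.85. On the scale of log2(TPM + 1), where the change of low genes is understated, the difference was 1.48 with an SE of 0.33 and a 95% interval of 0.69 to 2.26. Its unadjusted p was 0.00292 and its adjusted p over all 17555 genes tested was 0.124 (limma). The exact two-sided permutation test gave p = 0.1, the smallest that 3 against 3 libraries allow. The paper reports that each sorted sample held several retinas. Nothing in the labels says how far the 3 libraries of a group are independent. The p-values therefore measure the spread between libraries, which may be technical. Microglia and macrophages are known sources of retinal IGF-1. The summed myeloid markers, largest for *Lyz2* and *C1qa*, had the opposite order to *Igf1*, since all cKO libraries were below all WT libraries. All 8 markers had negative log2 differences, but the groups were apart for only 3. *Csf1r* and *Cx3cr1* had overlapping groups, at -0.46 and -0.60. The part of these cells in the *Igf1* values was not tested. The summed markers of rods and amacrine cells had the same order as *Igf1*. In the amacrine list 6 of 7 log2 differences were positive, but the groups were apart for only 2, and *Tfap2a* was at -0.56. The RGC sum also had the order of *Igf1*. In it *Thy1*, the target of the sort, was among the most abundant. *Pou4f1*, *Rbpms* and *Sncg* had log2 differences of -0.64, -0.41 and -0.83 with overlapping groups.

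*Bdnf* encodes brain-derived neurotrophic factor and has 7 listed starts (chr2:109674700-109727043). It was at 3.21, 4.87 and 1.95 TPM in WT and at 5.11, 6.80 and 3.20 TPM in cKO. The groups overlapped, since cKO replicate 3 was below WT replicates 1 and 2, while each cKO library was above the same-numbered WT one. The log2 difference was 0.49 with a 95% interval of -0.42 to 1.39 (adjusted p = 0.534 by limma). *Ntf3* encodes neurotrophin-3 (chr6:126101412-126166772) and was at 0, 0.311 and 0.480 TPM in WT and at 0.311, 0.372 and 0.855 TPM in cKO. It stayed under 1 TPM in all 6 libraries, did not pass the filter on low values and was therefore left out of the test. The groups overlapped, and the gene was close to the lower end of what was measured in both.

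Of the receptors, *Ntrk2* was the only one whose groups did not overlap. *Ntrk2* encodes TrkB (chr13:58806472-59133970), and one TPM value per gene does not separate the kinase from the truncated form without a kinase domain. It was at 16.7, 18.4 and 17.7 TPM in WT and at 39.9, 29.8 and 19.7 TPM in cKO. The WT libraries were close together, at 17.6 ± 0.851 TPM (SD, n = 3), and the cKO libraries spread upward from replicate 3, which lay just above them. The log2 difference was 0.68 with a 95% interval of -0.02 to 1.38 (unadjusted p = 0.0566 and adjusted p = 0.284 by limma). *Ntrk3*, the gene of TrkC (chr7:78179986-78581034), was at 4.70, 1.98 and 5.02 TPM in WT and at 6.46, 4.89 and 3.42 TPM in cKO. Its groups overlapped, with a log2 difference of 0.31 (95% interval -0.60 to 1.22, adjusted p = 0.700). Without WT replicate 2, the lowest library, the difference turned to -0.016.

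*Ngfr*, which encodes p75NTR (chr11:95568818-95587698), was the most abundant of the 8 genes and varied more between replicates than between groups. It was at 178, 678 and 404 TPM in WT and at 261, 302 and 612 TPM in cKO. WT replicate 2 and cKO replicate 3 were high, WT replicate 1 was low, and the groups overlapped throughout. The log2 difference was -0.0047 with an SE of 0.54 and a 95% interval of -1.28 to 1.27 (adjusted p = 0.998 by limma), which leaves room for a sizeable difference of either sign. Leaving out WT replicate 2 gave a difference of 0.44, and leaving out WT replicate 3, cKO replicate 1 or cKO replicate 2 gave 0.07, 0.24 and 0.13. Without WT replicate 1 the difference was -0.52, and without cKO replicate 3 it was -0.38. The summed markers of Mueller glia and astrocytes were 10640, 17560 and 20410 TPM in WT and 8474, 8923 and 21360 TPM in cKO. In both groups replicate 1 was lowest for these markers and for *Ngfr*, and in cKO replicate 3 was highest for both. In WT the highest library was replicate 2 for *Ngfr* and replicate 3 for the markers. The order of these markers was not particular to glia. Summed markers of endothelial cells and pericytes had the same order, at 384, 603 and 1043 TPM in WT and 273, 322 and 771 TPM in cKO. The part of either in the *Ngfr* values was not tested.

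*Igf1r*, the gene of the IGF-1 receptor (chr7:67952257-68233668), was at 36.2, 59.1 and 55.4 TPM in WT and at 45.3, 54.2 and 86.4 TPM in cKO. The groups overlapped, although the highest library was cKO replicate 3, and the log2 difference was 0.27 (95% interval -0.48 to 1.03, adjusted p = 0.679 by limma). It was 0.0097 without cKO replicate 3 and 0.058 without WT replicate 1. *Gfra1* encodes the co-receptor that binds GDNF (chr19:58235581-58455946). It was at 3.67, 2.52 and 3.31 TPM in WT and at 10.9, 10.9 and 2.11 TPM in cKO. Both cKO replicates 1 and 2 were above all of WT, and replicate 3 was the lowest library of all 6, so the groups overlapped. The log2 difference was 0.88 with a 95% interval of -0.43 to 2.18 (adjusted p = 0.435). Rod markers did not share that order within cKO, where replicate 1 was lowest, whereas amacrine markers, at 1216, 1087 and 569 TPM, and bipolar markers, at 1694, 1788 and 1118 TPM, were lowest in replicate 3.

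**Figure D2:**
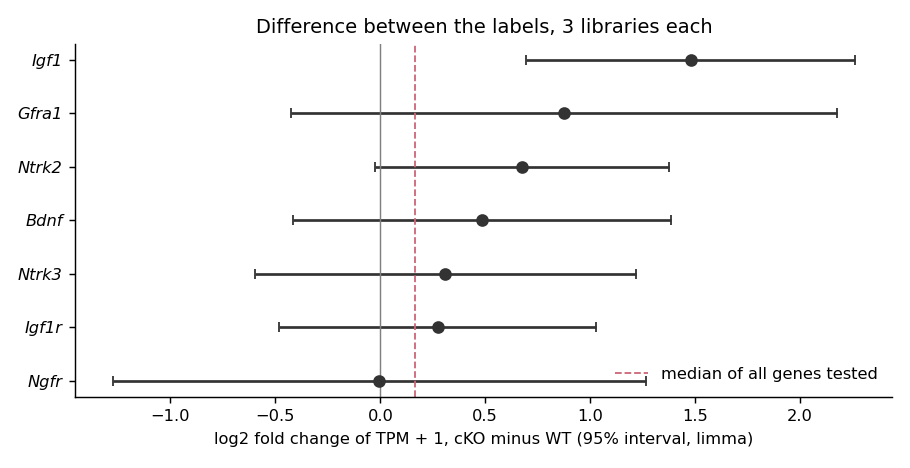
Log2 fold change of TPM + 1, cKO minus WT (horizontal axis), for the 7 genes that passed the filter, with 95% intervals from limma, 3 libraries each. The interval of *Igf1* (0.69 to 2.26) excludes 0, those of the other 6 genes include it, and the dashed line marks the median of all genes tested, at 0.16.

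Of the 8 genes, 7 passed the filter (TPM of at least 1 in at least 3 libraries). Of these 7, 1 was higher in cKO at an unadjusted p under 0.05 and 0 were lower (limma). By the same measure 11.9% of all genes tested lay higher and 6.45% lay lower, so a count of 1 of 7 is near the background. None passed an adjusted p of 0.05, which 0.00570% of all genes, a single gene, did. In 2 of the 7, *Igf1* and *Ntrk2*, every cKO library was above every WT library, and in 0 every cKO library was below, against 18.7% and 7.18% of all genes. The median log2 difference was 0.49 for the 7 genes and 0.16 for all genes. Scaling the libraries by the median of ratios moved the median of all genes to 0.01, and the share of higher genes among all those at an unadjusted p under 0.05 from 64.9% to 44.4%. The difference was still positive for *Igf1* after that scaling, at 1.31. The count stayed at 1 of 7 in each other fit that left out 1 library. Without cKO replicate 3 it was 3 of 7, when 13.5% of all genes were higher. Beside *Igf1*, *Ntrk2* was then at a log2 difference of 0.93 (unadjusted p = 0.0119 by limma) and *Gfra1* at 1.52 (unadjusted p = 0.00247). Replicate 3 was the lowest cKO library for both of these genes, so the larger count is no support.

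The profile of each gene over the 6 libraries was set beside those of all tested genes with a mean of at least 5 TPM, by the root mean square difference of log2(TPM + 1) after centring. The nearest profile to *Igf1* was that of *B130024G19Rik*, at a difference of 0.086, followed by *Gngt1*, at 0.086, which encodes the gamma subunit of rod transducin. The nearest to *Ntrk2* was *Pde4b*, a cAMP phosphodiesterase, at 0.073. *Shtn1* followed at 0.075. For *Ngfr* the nearest were *B3glct* at 0.10 and *Tpcn1* at 0.13, and for *Gfra1* they were *Igsf8* at 0.13 and *Rd3l* at 0.20. For *Igf1r* they were *Pcdhgb6* at 0.049 and *Slc11a2* at 0.067, for *Bdnf* they were *Ube2d2a* at 0.070 and *Casd1* at 0.074, and for *Ntrk3* they were *Pus3* at 0.10 and *Nsd2* at 0.12. For scale, the SD of the same log2 values over the 6 libraries was 0.90 for *Igf1* and 0.41 for *Igf1r*.

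ATAC-seq marks open chromatin by where a transposase can cut. Read numbers in a region are the authors' normalized means of each group, so there is no value per library and no test. The largest number of reads in WT was found at *Igf1r*. The region chr7:67950792-67952642 spans its listed start and the whole sequence printed for it, and held 122 mean normalized reads in WT and 10.7 in cKO, a log2 difference of -3.51. Both WT libraries had a peak there and neither cKO library did. The region at *Ntrk2*, chr13:58806404-58807185, also spans the start and held 22.2 reads in WT and 5.70 in cKO, a log2 difference of -1.96. Peaks were called in it in WT replicates 1 and 2 and in cKO replicate 1. The region at *Ngfr*, chr11:95586543-95587723, lies on the start and reaches 25 bases into the printed sequence. It held 24.6 and 8.28 reads, a log2 difference of -1.57, with peaks in the WT libraries only. The region at *Gfra1*, chr19:58454491-58455194, lies inside the gene, 204 bp past the listed start, and held 15.2 and 7.52 reads, a log2 difference of -1.02, with peaks in WT replicate 2 and cKO replicate 1.

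All 4 of these regions were at least 2-fold lower in cKO by the group means. Of the 8001 regions within 1000 bp of any gene end, 89.0% were, as were 59.8% of all 16600 regions, so 4 of 4 is what regions at gene ends show in general. The median log2 difference of the 8001 regions was -2.50. The difference at *Igf1r* was larger than that median, with 17.1% of those regions below it. The other 3 differences were smaller than the median, with 68.6% of the regions below *Ntrk2*, 79.6% below *Ngfr* and 88.6% below *Gfra1*. *Igf1r* and *Ntrk2* had fewer reads at their starts in cKO, while their mean TPM was 1.23 and 1.70 times that of WT, the first with overlapping groups. At *Ngfr*, also with overlapping groups, the mean TPM was 0.933 times that of WT.

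**Figure D3:**
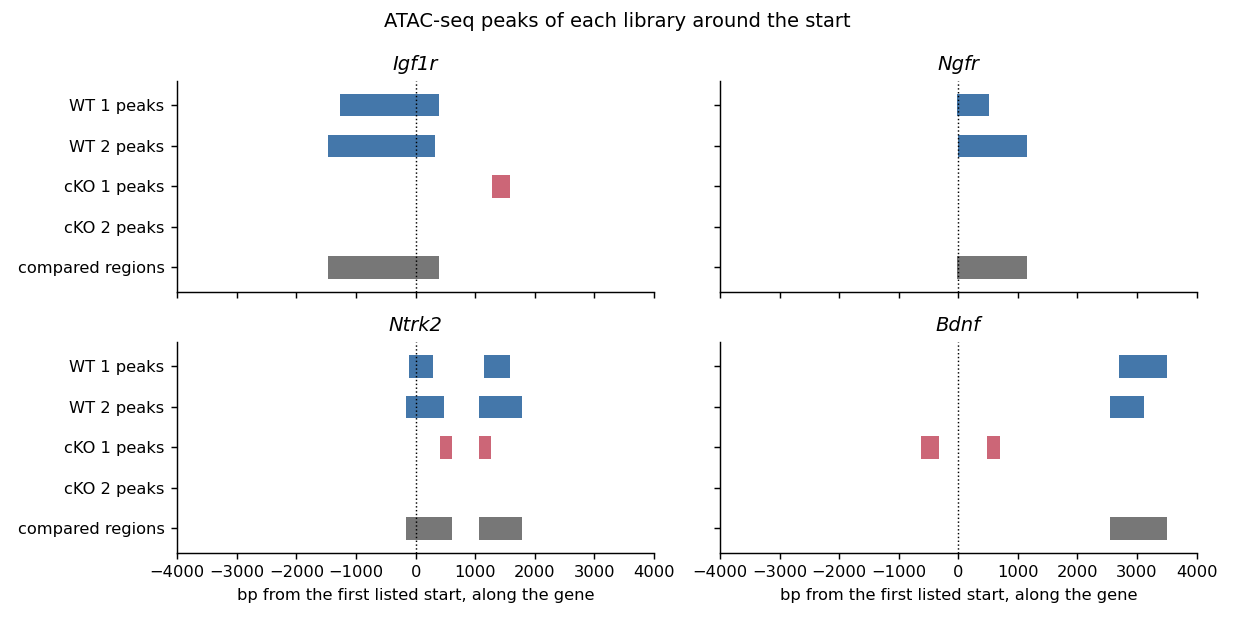
Peaks of the 4 ATAC-seq libraries (rows, blue for WT and red for cKO) and the compared regions (grey) around the first listed start of 4 genes, in bp along the gene. At *Igf1r* peaks over the start are seen in both WT libraries and in no cKO library, at *Ngfr* the WT replicate 1 peak covers the start and the WT replicate 2 peak begins 2 bp past it, at *Ntrk2* cKO replicate 1 has 2 short peaks past the start, and at *Bdnf* the WT peaks lie 2547 to 3502 bp past the first start.

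The ligand genes had no compared region within 1000 bp of an end. The nearest for *Bdnf* was chr2:109677247-109678202, which is 2547 bp from the gene's end and 215 bp past its second listed start. It held 26.5 reads in WT and 8.28 in cKO, a log2 difference of -1.68, with peaks in both WT libraries. cKO replicate 1 instead had 2 short peaks around the first start of *Bdnf*, one before it and one beginning 477 bp past it, neither of them in a compared region. *Igf1* and *Ntf3* had no compared region in the gene or within 3000 bp of it. *Igf1* had peaks within 1000 bp of an end in cKO replicate 2 only, and *Ntf3* and *Ntrk3* in none of the 4 libraries.

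By the peak lists, 3 of the 8 genes had a peak within 1000 bp of an end in WT replicate 1, 4 in WT replicate 2, 2 in cKO replicate 1 and 3 in cKO replicate 2. Among 21896 protein-coding genes the shares were 49.3%, 42.8%, 12.4% and 12.8%, although the libraries had 76522, 42265, 55902 and 68317 peaks in all. *Ntrk2* was the one gene of the 8 with such a peak in all 4 libraries, although that of cKO replicate 2 lay at the far end and not near the start. *Ngfr* and *Igf1r* had them in both WT libraries and in neither cKO library, and *Gfra1* in WT replicate 2. *Bdnf* had them in cKO replicates 1 and 2 and in no WT library, around the first start in replicate 1 and at the far end in replicate 2. The gene table gives both ends of a gene alike, so the far end counts as well.

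Inside the genes, further from the ends, regions differed in both directions. Of 16 regions in or within 3000 bp of the 8 genes, 13 were lower in cKO, 7 of them at least 2-fold. This count includes the 6 regions within 3000 bp of an end, all at least 2-fold lower. Of all 16600 regions, 12830 were lower and 59.8% were at least 2-fold lower, so regions of both directions are general. A second region in *Igf1r*, chr7:68128650-68130126, differed in the same direction as the start, with 56.5 reads in WT and 6.45 in cKO, a log2 difference of -3.13, while the other 4 regions inside *Igf1r* differed by -0.82 to 0.66. *Gfra1* held the opposite case. Its region chr19:58314890-58315376, inside the gene and 79309 bp from an end, held 0.877 reads in WT and 10.1 in cKO, a log2 difference of 3.52, with peaks in cKO replicates 1 and 2 and in no WT library. In *Ntrk2*, a region at chr13:58813093-58813809 held 5.43 reads in WT and 12.3 in cKO, a log2 difference of 1.18. The 2 regions in *Ntrk3* differed by -0.54 and -0.76.

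**Figure D4:**
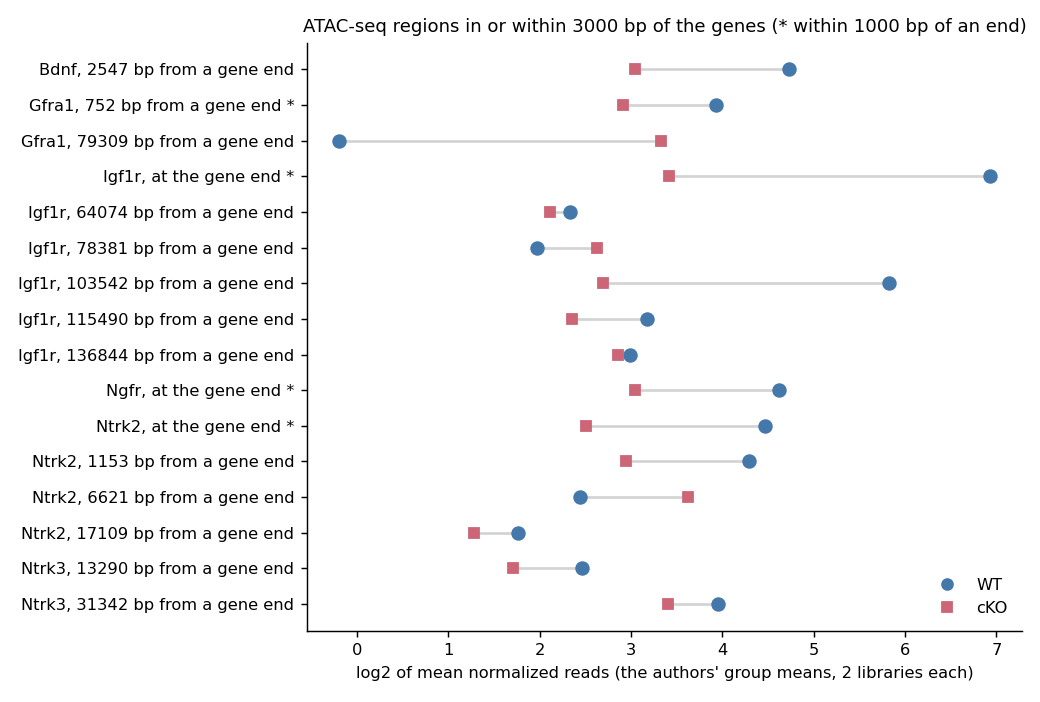
Log2 of the mean normalized ATAC-seq reads (horizontal axis, the authors' means of 2 libraries per group) in WT (blue circles) and cKO (red squares) for the 16 compared regions in or within 3000 bp of the genes, named by gene and distance to a gene end. The largest difference in each direction is at the start of *Igf1r* (-3.51) and within *Gfra1* (3.52).

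The other genes of these pathways were read from 7 lists with 136 genes, of which 118 passed the filter. Of these, 10 were higher in cKO and 7 were lower by the unadjusted p (8.47% and 5.93%, against 11.9% and 6.45% of all genes), and none passed after adjustment over all genes (lowest adjusted p = 0.124 by limma). In 16 every cKO library was above every WT library, and in 6 below (13.6% and 5.08%, against 18.7% and 7.18% of all genes). The median log2 difference was 0.04. Scaling by the median of ratios turned the balance, to 7 higher and 10 lower. The count of higher genes was 6 without cKO replicate 1, 5 without cKO replicate 2 and 16 without cKO replicate 3, and the share of all genes that were higher moved alike, to 6.97%, 5.89% and 13.5%.

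Of the receptors on the list, *Ret* was the one tested gene whose groups did not overlap. *Ret* encodes the kinase to which GFRA1 brings GDNF, and was at 2.04, 0.964 and 0.786 TPM in WT and at 4.70, 5.80 and 2.09 TPM in cKO. All cKO libraries were above all WT libraries, replicate 3 only just, with a log2 difference of 1.16 (adjusted p = 0.201 by limma). With WT replicates 2 and 3 under 1 TPM, *Ret* would not have passed the filter without its cKO libraries. The filter thus rested mostly on the group where it is higher, and its count is no support. *Gdnf* itself was at most 0.115 TPM, and the TrkB ligand *Ntf5* was at most 0.358 TPM, so neither was tested. *Sort1*, the gene of the p75NTR co-receptor sortilin, was at 6.59 to 14.4 TPM in WT and 8.38 to 10.2 in cKO, and the insulin receptor gene *Insr* was at 29.7 to 48.4 and 42.7 to 50.5 TPM. Both had overlapping groups, as did *Igf2*, a further IGF1R ligand, at 33.0 to 61.1 and 17.5 to 45.0 TPM. Of the 13 other receptors tested, 1 was higher (*Ret*) and 0 were lower at an unadjusted p under 0.05 (7.69% and 0%, against 11.9% and 6.45% of all genes). Of the 8 other ligands tested, 1 was higher and 1 was lower (12.5% each), counts too small to set the list apart. *Hgf*, hepatocyte growth factor, was higher at 4.42 to 6.85 TPM in WT and 10.2 to 11.3 in cKO (unadjusted p = 0.0169 by limma). *Manf*, a factor of the endoplasmic reticulum, was lower at 98.4 to 133 and 62.5 to 83.3 TPM (unadjusted p = 0.0195).

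Of the 5 IGF binding proteins tested, 1 was lower and 0 were higher by that measure (20.0% and 0%, against 6.45% and 11.9% of all genes), a count too small to set the list apart. The lower gene was *Igfbp7*, known from blood vessels, at 22.3, 47.5 and 5.04 TPM in WT and at 5.80, 5.00 and 1.14 TPM in cKO. Its log2 difference was -2.10 (unadjusted p = 0.0352 by limma), and its groups overlapped. *Igfbp4* was at 59.9 to 120 and 32.5 to 82.9 TPM. All 5 vascular markers tested had negative log2 differences, but only 1 was lower by that measure and 4 had overlapping groups.

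Among 13 genes for the cleavage and secretion of neurotrophins, 3 were higher and 1 was lower (23.1% and 7.69%, against 11.9% and 6.45% of all genes), counts too small to set the list apart. *Pcsk2*, a convertase of the regulated secretory pathway, was at 12.4 to 14.9 TPM in WT and 23.1 to 44.5 in cKO (log2 difference 1.24, unadjusted p = 0.00374). *Htt*, huntingtin, which takes part in the transport of BDNF vesicles, was at 9.06 to 13.3 and 19.9 to 24.2 TPM (0.91, unadjusted p = 0.00807). *Pcsk6* was at 0.579 to 1.03 and 1.63 to 1.90 TPM, with only replicate 1 of the WT libraries above 1 TPM. It would not have passed the filter on low values without its cKO libraries, so no test is given for it although it is in the count. *Furin*, the convertase of the constitutive pathway, was lower, at 8.15, 17.7 and 8.98 TPM in WT and at 3.58, 5.31 and 5.90 TPM in cKO (-1.03, unadjusted p = 0.0257). The groups did not overlap for any of these 4 genes, which were picked by their p-values, so this is no further support. In the list, every cKO library was above every WT library for 23.1% of the genes tested and below for 7.69%. For all genes the shares were 18.7% and 7.18%. The convertases *Furin* and *Pcsk2* differed in opposite directions. None of the 4 passed the adjusted threshold.

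**Figure D5:**
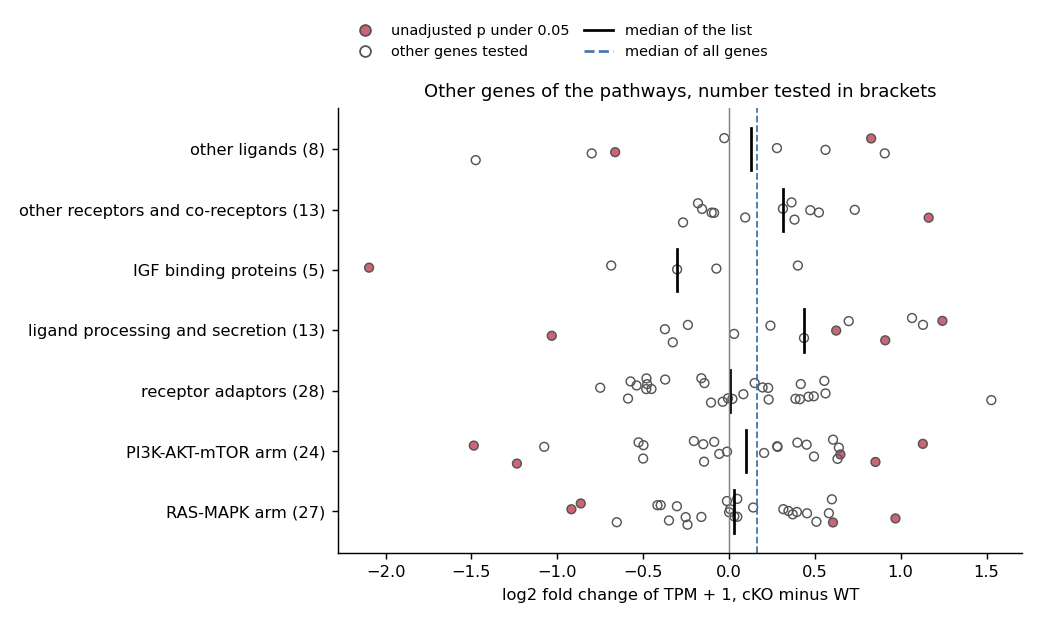
Log2 fold change of TPM + 1, cKO minus WT (horizontal axis), for the 118 tested genes of the 7 lists (rows), with genes at an unadjusted p under 0.05 filled, the median of each list as a black bar and the median of all genes as a dashed line. Filled points lie on both sides of 0, 10 higher and 7 lower, and receptor adaptors have none.

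Downstream of the receptors, 0 of 28 adaptors were past the unadjusted threshold in either direction, against 11.9% higher and 6.45% lower of all genes. In the PI3K-AKT-mTOR arm 3 of 24 were higher and 2 were lower (12.5% and 8.33%), which is near the share of all genes. The higher genes included *Pik3r3*, a regulatory subunit of PI3K, at 35.4 to 45.1 TPM in WT and 70.6 to 112 in cKO (log2 difference 1.13, unadjusted p = 0.00237), and *Tsc1*, an inhibitor of the arm, at 10.3 to 10.7 and 14.6 to 20.3 TPM (0.65, unadjusted p = 0.0308). The lower genes were *Inpp5d*, a phosphatase of blood cells (-1.49, unadjusted p = 0.0114), and *Eif4ebp1*, an inhibitor of translation that mTOR switches off (-1.24, unadjusted p = 0.00276). *Eif4ebp1* was at 8.69 to 10.7 TPM in WT and 2.91 to 4.45 in cKO, and *Inpp5d* at 29.8 to 62.0 and 8.08 to 23.0 TPM, the latter in the same order as the summed T cell and myeloid markers. In the RAS-MAPK arm 2 of 27 were higher and 2 were lower (7.41% each, against 11.9% and 6.45% of all genes). Higher were the kinases *Braf* (0.97, unadjusted p = 0.0150 by limma) and *Araf* (0.61, unadjusted p = 0.0143). Lower were *Rap1a*, a small GTPase (-0.86, unadjusted p = 0.0238), and *Rps6ka1*, a kinase downstream of ERK (-0.92, unadjusted p = 0.0499). *Araf* was at 159 to 180.2 TPM in WT and 246 to 290.2 in cKO, and *Rap1a* at 103 to 178 and 56.7 to 91.5 TPM. None of these genes passed the adjusted threshold.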

How the data were processed

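Groups were taken from the sample labels. The authors quantified RNA-seq reads with Salmon 1.0.0 and deposited TPM values per gene. ATAC-seq reads were aligned to GRCm38 with Bowtie2 2.3.5.1 (versions from the submitters' processing notes). The authors deposited a peak list per library, with positions only, and, per region, log2 values of each group's mean normalized reads. The authors' own fold changes and p-values, in both tables, were not used. Here, genes that reached a TPM of 1 in 3 or more of the 6 libraries were compared as log2(TPM + 1) with limma 3.58.1 in R 4.3.3 (empirical Bayes with a trend, two-sided, Benjamini-Hochberg over all genes tested), after a check on simulated data. The study fitted counts, which TPM does not allow. Regions and peaks were matched to gene ends with Python 3.11.15, using RefSeq genes of GRCm38.p6, and starts in the files, counted from 0, were moved by 1. The 8 genes and the lists were chosen with earlier results of these data known. Genes named beside them were, per list, up to 3 in each direction with the lowest unadjusted p under 0.05, their ligands and receptors, and the 2 nearest profiles. Some of these are not reported here. Markers and *Igfbp4* were named after their values were seen. Same-numbered WT and cKO libraries deviated together, with correlations across genes of 0.334, 0.101 and 0.425, so the numbers were taken as pairs and a block was fitted as an alternative. WT replicate 1 with cKO replicate 2 reached 0.193, above the 0.101 of the replicate 2 pair, so that pair is not set apart. The other unlike-numbered pairs were at 0 or below. Deviations within a group of 3 libraries sum to 0, so such values follow in part from the positive pairs and add no support. The pairing comes from these correlations, not from the labels. Other alternatives were another pseudocount (0.1), no filter, median-of-ratios scaling, a mean TPM of 5 or more, no trend, leaving out each library, and distances of 500 and 3000 bp.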

Additional observations from a re-analysis of the deposited data

How the results depend on the processing

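*Igf1* kept its direction and an unadjusted p under 0.05 in all 12 alternatives, with log2 differences of 1.27 to 1.75 and adjusted p of 0.0860 to 0.469 (limma). The replicate block left the count of the 8 genes at 1 higher and 0 lower and moved that of the pathway genes from 10 to 13 higher and from 7 to 10 lower; it changed no call of the 8 genes. Leaving out 1 library each gave 1 to 3 of the 8 genes higher and 0 lower, and 5 to 16 pathway genes higher and 5 to 7 lower. *Ngfr* reversed to 0.44 without WT replicate 2, 0.07 without WT replicate 3, 0.24 without cKO replicate 1 and 0.13 without cKO replicate 2, with a range of -0.52 to 0.44 over the 6 fits, and *Ntrk3* to -0.016 without WT replicate 2, with a range of -0.016 to 0.50; fewer libraries entered these fits. A mean of at least 5 TPM left *Bdnf* and *Ntrk3* out. At least 4-fold lower regions numbered 1 of 4. In cKO replicate 1, 5 of the 8 genes had a peak within 3000 bp of an end and 1 within 500 bp, against 2 within 1000 bp. No paired analysis was possible because only group means were compared in the case of ATAC-seq. TPM and group means give no depth, and 3 libraries per group leave wide intervals.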
